A study of Mus musculus with 22 samples.

Results

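The anaphase-promoting complex is the ubiquitin ligase that ends mitosis. It is followed here through 9 genes, Fzr1, Cdc20, Cdc23, Cdc27, Anapc2, Anapc4, Anapc5, Anapc11 and Anapc13, in muscle recovering from ischemia with and without blockade of miR-210. The members were chosen by name: every array probe whose platform gene symbol is one of the 9 was taken, which gave 18 of 38563 probes and 9 of 18524 genes. Fzr1 is among the genes that the study chose for qPCR on these same samples, so its direction on the array is not independent evidence. RNA of the ischemic gastrocnemius came from 22 C57BL/6N males, labelled non-diabetic and 8 to 12 weeks old, with 1 Illumina MouseWG-6 v2 array per mouse. All 22 had a femoral artery removed. On day 5 they were injected intraperitoneally with 12 mg/kg of an LNA-modified oligonucleotide, ANTI-210 in 11 mice and the scrambled control SCR in the other 11, and the muscle was taken on day 7. No uninjected or non-ischemic muscle was analysed here, so both groups carry the injury and an oligonucleotide.

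The complex attaches ubiquitin chains to cell cycle proteins, which are then degraded by the proteasome. It works only with a coactivator that brings in the substrate. Cdc20 is the coactivator of mitosis and is itself made mainly in dividing cells, whereas Fzr1, also called Cdh1, takes over at the exit from mitosis and also acts in cells that no longer divide, skeletal muscle among them. Anapc2, a cullin, and Anapc11, a RING protein, form the catalytic core. Cdc23 and Cdc27 belong to the scaffold of TPR proteins that holds the coactivator, Anapc4 and Anapc5 to the platform beneath it, and Anapc13 is a small stabilizing subunit.

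The 3 sequences here place the comparison. The first is mmu-miR-210-3p, the microRNA that ANTI-210 blocks, shown with its seed (bases 2 to 8) in capitals. The others are the 250 bases before the RefSeq starts of the 2 coactivators. The capitals mark TTTGAA, the core of the CHR element of many G2/M genes, and CCAAT, the NF-Y box, on either strand. Sequences are from RefSeq on GRCm38.p6, and all 3 are read from the minus strand: miR-210-3p at chr7:141221407-141221428, Cdc20 at chr4:118437344-118437593 and Fzr1 at chr10:81378371-81378620.
mmu-miR-210-3p: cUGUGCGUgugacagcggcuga
Cdc20 promoter: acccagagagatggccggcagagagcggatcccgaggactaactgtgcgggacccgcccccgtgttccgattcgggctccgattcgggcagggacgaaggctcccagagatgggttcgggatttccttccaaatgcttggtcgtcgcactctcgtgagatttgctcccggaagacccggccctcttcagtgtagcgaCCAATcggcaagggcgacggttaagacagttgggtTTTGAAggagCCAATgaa
Fzr1 promoter: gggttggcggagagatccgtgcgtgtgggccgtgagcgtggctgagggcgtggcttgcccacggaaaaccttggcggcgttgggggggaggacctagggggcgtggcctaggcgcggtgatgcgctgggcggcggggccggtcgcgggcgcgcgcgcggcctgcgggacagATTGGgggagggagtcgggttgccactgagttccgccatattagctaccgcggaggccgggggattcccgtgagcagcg

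In the Cdc20 window TTTGAA began at -18 and CCAAT at -53 and -8, counted from the start. The Fzr1 window held no TTTGAA and 1 CCAAT, on the opposite strand, at -79. Over all 32851 RefSeq windows, cut to the same 250 bases and searched on both strands, 15.99% held TTTGAA, 33.9% held CCAAT and 1.53% held TTTGAA with at least 2 CCAAT. Among the 9 windows of the 8 members that have one, TTTGAA was found only in that of Cdc20. These letter matches describe the windows and are not binding sites. Their relation to the co-variation of genes among mice, given below, was not tested.

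Values are log2 intensities, as quantile normalized by the authors, and differences are ANTI-210 minus SCR from limma fitted over all probes. Probes that averaged under 6 in the 22 mice are named as near the floor, as 62.6% of all probes were. Values there can respond little to the amount of RNA, which the mean alone does not show for a single probe. Of the member probes 12 were above this level and 6 were not. The brightest probe stood for each gene, and for Cdc27 and Anapc11 even this probe was near the floor. Mature fibre genes were at the top of the range in every muscle (mean of the list 14.0 to 14.7 in ANTI-210 mice and 14.09 to 14.7 in SCR mice), with Ckm and Acta1 among them. Array values correlated at 0.947 to 0.997, and a principal component separated replicate numbers 1 to 3 of both groups from numbers 4 to 11, which no label names as a batch. Values are therefore also given within each set of numbers, 3 against 3 mice (where an exact two-sided permutation test cannot go below 0.1) and 8 against 8. This is bulk tissue, in which fewer cells of a type and less RNA per cell cannot be told apart.

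Fzr1 was the only member whose brightest probe differed between the groups at an unadjusted p under 0.05, and it was higher after ANTI-210. In ANTI-210 muscles it ran from 10.68 over a median of 10.86 to 11.24, and in SCR muscles from 10.47 over a median of 10.60 to 11.03. The groups overlapped, yet 8 of the 11 SCR mice lay below the lowest ANTI-210 mouse and 2 ANTI-210 mice lay above the highest SCR mouse. The means were 10.90 ± 0.17 in ANTI-210 mice and 10.66 ± 0.18 in SCR mice (SD, n = 11 each), a difference of 0.24 (standard error 0.07, 95% interval 0.09 to 0.39) or 1.18-fold. The unadjusted p was 0.00372 from limma and 0.00562 from a two-sided permutation test of this single value. After Benjamini-Hochberg adjustment over all probes limma gave 1, so the difference did not pass the correction.

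The difference had the same sign in both sets of numbers. In numbers 1 to 3 the ANTI-210 mice had 10.72 to 10.86 and the SCR mice 10.47 to 10.59, without overlap, a difference of 0.30 (exact permutation p = 0.1, the smallest possible). In numbers 4 to 11 it was 0.22 (exact permutation p = 0.0350), with 10.68 to 11.24 in ANTI-210 mice and 10.49 to 11.03 in SCR mice.

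The other Fzr1 probes did not share it. Which Fzr1 transcripts each probe reads was not checked, so the probes may not measure the same RNAs. The second probe ran from 8.97 over a median of 9.29 to 9.61 in ANTI-210 mice and from 9.05 over a median of 9.23 to 9.61 in SCR mice, a difference of -0.01 (95% interval -0.17 to 0.15, unadjusted p = 0.895 from limma). The third probe ran from 7.88 over 8.16 to 8.43 in ANTI-210 mice and from 7.95 over 8.22 to 8.53 in SCR mice, a difference of -0.07 (95% interval -0.21 to 0.07, unadjusted p = 0.338 from limma). On both probes the groups covered nearly the same range. With the mean of all 3 probes in place of the brightest, the Fzr1 difference was 0.054 (unadjusted p = 0.385 from limma). The gap between the brightest and the second probe was 1.64 in ANTI-210 mice and 1.39 in SCR mice, a difference of 0.25 (permutation p = 4.4e-04, adjusted over both contrasts 8.8e-04). Between the brightest and the third it was 2.76 in ANTI-210 mice and 2.45 in SCR mice, a difference of 0.30 (permutation p = 9.7e-04, adjusted 9.7e-04). The gap exceeded that of every SCR mouse in 3 ANTI-210 mice for the second probe and in 7 for the third. These contrasts were chosen after the values of the probes were seen. Among mice, with group means removed, the brightest Fzr1 probe correlated with the second at r = 0.72 and with the third at r = 0.44 (Spearman's rho 0.66 and 0.41, permutation p = 1.6e-04 and 0.0401, adjusted over 14 probe pairs 3.2e-04 and 0.0468). Without the 2 mice farthest from the median of the brightest probe these r were 0.51 and 0.25 (permutation p = 0.0219 and 0.2805). Only the relation with the second probe then kept a p under 0.05. In numbers 1 to 3 the r were 0.79 and 0.91, and in numbers 4 to 11 they were 0.80 and 0.22.

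**Figure D1:**
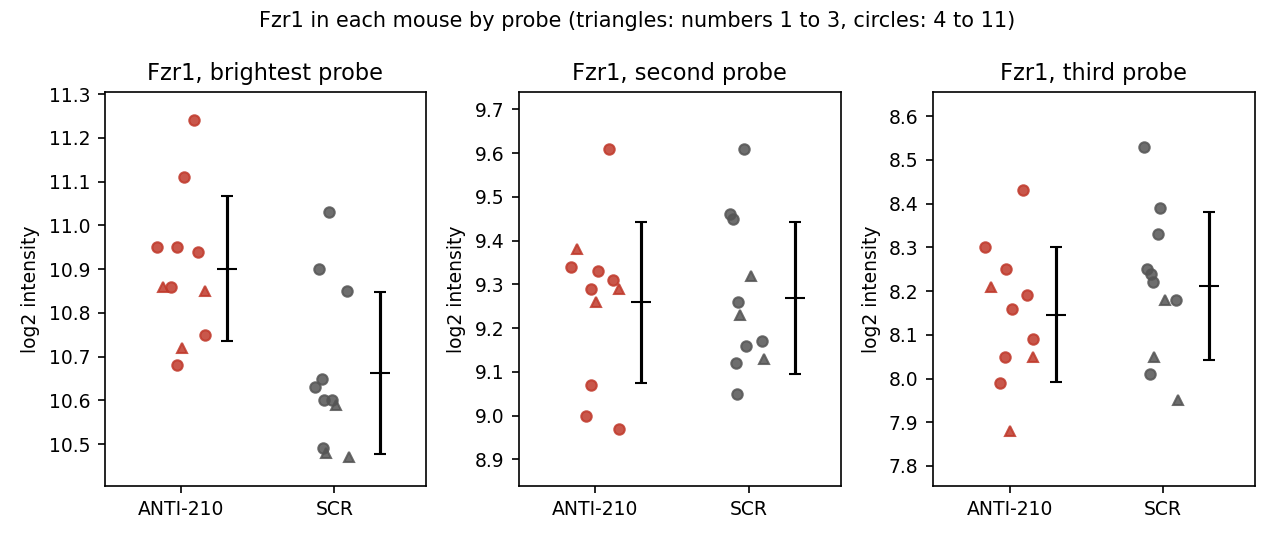
Log2 intensity of the 3 Fzr1 probes in each mouse, ANTI-210 left and SCR right of each panel. Points are mice (triangles for replicate numbers 1 to 3, circles for 4 to 11), and bars are mean ± SD (n = 11 each). The brightest probe is higher in ANTI-210 mice by 0.24, while the differences on the other probes are -0.01 and -0.07.

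Some markers of other cells also passed the unadjusted threshold, as did 3.47% of all genes, and these values stand beside the Fzr1 result. No marker passed after Benjamini-Hochberg adjustment over all probes, and the smallest adjusted p from limma was 0.264, for Chad. Of 5 endothelial markers 3 were higher with ANTI-210 at an unadjusted p under 0.05 (Emcn, Cdh5 and Tek, with Kdr near the floor), and the list's mean level was 8.76 to 9.21 in ANTI-210 mice and 8.59 to 9.002 in SCR mice. Of 5 tendon markers 3 were higher (Chad by 1.17, Fmod by 0.82 and Comp by 0.59). The list level was 8.41 to 9.05 in ANTI-210 mice and 7.63 to 8.88 in SCR mice. Of the other tendon markers Tnmd was near the floor, while Scx, above it, differed by -0.13 (unadjusted p = 0.469 from limma). Of 4 adipocyte markers Retn was lower, near the floor, and no marker of the other 7 lists passed. Among mice, the correlation of Fzr1 was r = -0.15 with the endothelial level (rho -0.14, adjusted p = 0.675 over 20 relations, permutation test) and 0.25 with the tendon level (rho 0.30, adjusted p = 0.415). In numbers 1 to 3 these r were -0.95 and -0.22, and in numbers 4 to 11 they were -0.17 and 0.23. The part of these cells in the Fzr1 difference was not tested.

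For the complex as a whole, 1 of 18 member probes, or 1 of 9 genes, passed the unadjusted threshold. Over all probes 3.41% passed, and over all genes 3.47%, of which 1.45% were higher and 2.01% lower in ANTI-210 mice. With this 1 call the members' share was above that of all probes and of all genes. Nothing particular to the complex is read from so small a count. No member probe passed after adjustment, and the lowest unadjusted p among the 17 other probes was 0.223, from a dim Cdc27 probe. By brightest probe 4 members were higher and 5 lower, with a median difference of -0.01 against -0.0036 over all genes.

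Cdc20, the mitotic coactivator, varied more among mice than 98.0% of genes (SD 0.83) and no difference between the treatments was detected. In ANTI-210 muscles it ran from 6.35 over a median of 7.54 to 9.10, and in SCR muscles from 6.51 over a median of 7.10 to 9.27. Both groups thus held low and high mice. The difference was 0.18 (standard error 0.35, 95% interval -0.54 to 0.91, unadjusted p = 0.600 from limma), an interval wide enough to hold the Fzr1 difference with either sign. The next brightest probes gave 0.21 and 0.30, and the dimmest, near the floor, gave -0.02. The 3 brighter probes followed each other at r = 0.956 to 0.966 over the mice.

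The sign of the Cdc20 difference turned between the sets of numbers. In numbers 1 to 3 the ANTI-210 mice had 7.54 to 8.38 and the SCR mice 6.51 to 7.07, a difference of 1.23 without overlap (exact permutation p = 0.1). In numbers 4 to 11 it was -0.21 (exact permutation p = 0.646), with 6.35 to 9.10 in ANTI-210 mice and 6.58 to 9.27 in SCR mice. Such separation was common in the small set: 6 of the 9 members did not overlap in numbers 1 to 3, against 38.1% of all genes, while in numbers 4 to 11, with 8 mice a group, 0 of 9 were without overlap, against 0.0054% of all genes.

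The scaffold subunits Cdc23 and Cdc27 did not differ detectably. Cdc23 ran from 7.40 over 8.23 to 8.88 in ANTI-210 mice and from 7.55 over 7.83 to 8.64 in SCR mice, a difference of 0.15 (standard error 0.18, 95% interval -0.22 to 0.51, unadjusted p = 0.414 from limma). Like Cdc20, it was higher with ANTI-210 in numbers 1 to 3 (0.75, no overlap) and not in numbers 4 to 11 (-0.08). Its second probe was near the floor, showed a difference of -0.01, and ran opposite to the first among mice (r = -0.46, rho -0.48, permutation p = 0.0330, adjusted 0.0420). Without the 2 farthest mice r was -0.43 (permutation p = 0.0607 over 20 mice), and it was 0.29 in numbers 1 to 3 and -0.56 in numbers 4 to 11. All 3 Cdc27 probes were near the floor, with differences of 0.03, -0.10 and 0.13 (unadjusted p = 0.804, 0.298 and 0.223 from limma), so its level was poorly measured.

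No subunit of the platform or the catalytic core, nor the small subunit, passed the threshold. Anapc4 had the least spread of the well measured members (SD 0.10): it ran from 10.24 over 10.43 to 10.60 in ANTI-210 mice and from 10.30 over 10.44 to 10.58 in SCR mice, a difference of -0.01 (95% interval -0.10 to 0.08). Anapc5 ran from 12.55 over 13.01 to 13.47 in ANTI-210 mice and from 12.55 over 13.34 to 13.64 in SCR mice, a difference of -0.11 (standard error 0.14, 95% interval -0.41 to 0.19), and its second probe gave -0.17. Anapc5 was lower with ANTI-210 in numbers 1 to 3 (-0.56, no overlap) and differed by 0.06 in numbers 4 to 11, in both sets with the opposite sign to Cdc20. Anapc2, the cullin, differed by -0.04 (95% interval -0.19 to 0.11). Anapc11, its RING partner, was near the floor in every mouse (4.46 to 4.70 in ANTI-210 mice and 4.48 to 4.83 in SCR mice). Anapc13 differed by -0.03 (95% interval -0.23 to 0.17), with -0.28 in numbers 1 to 3 and 0.07 in numbers 4 to 11.

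**Figure D2:**
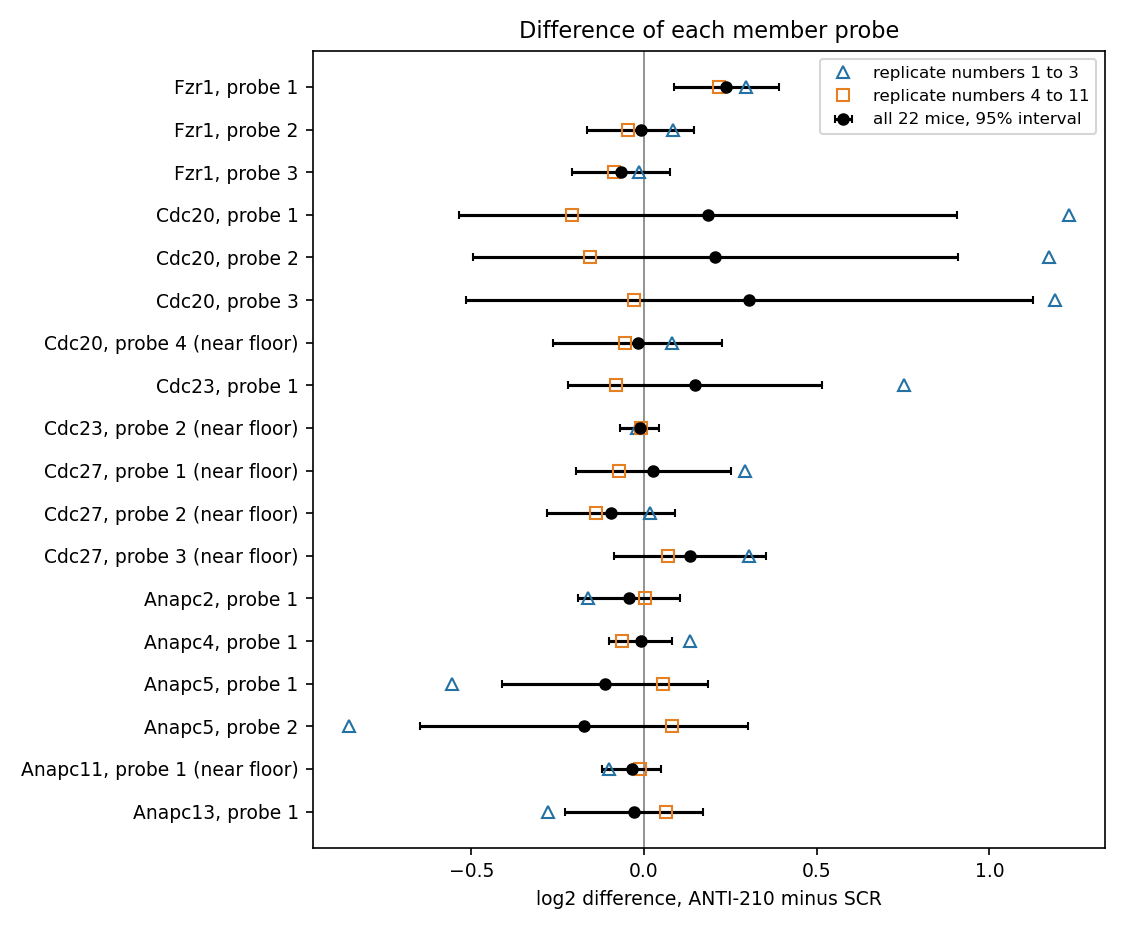
The 18 member probes, numbered from the brightest of each gene, with their log2 differences (ANTI-210 minus SCR). Black points are all 22 mice with 95% intervals from limma, triangles the mice of numbers 1 to 3 and squares those of numbers 4 to 11. The interval of the first Fzr1 probe alone does not reach 0, and the triangles of Cdc20, Cdc23 and Anapc5 lie far from the squares.

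The members co-varied among the mice. With group means removed, 23 of 36 pairs were correlated over the 22 mice at an adjusted p under 0.05 (permutation test of Pearson's r, Benjamini-Hochberg over 36 pairs), 12 positively and 11 negatively. In 22 pairs Spearman's rho passed as well. Leaving out the 2 mice farthest from the median, 5 of the 23 lost an unadjusted p under 0.05. Such pairs were frequent in these muscles, where 63.6% of the variance lay along 1 principal component. The smallest r among the 23 pairs was 0.494 in size, and 19.5% of all pairs of genes reached it. Among genes above the floor level 50.9% of pairs did, beside 15 of the 21 pairs of the 7 members above it, and nothing particular to the members is read from this count. Of the 23, 12 had the same sign in both sets of numbers and 21 had an unadjusted p under 0.05 within numbers 4 to 11.

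One block of members rose with Cdc20 and another fell. Cdc23 followed Cdc20 (r = 0.84, rho 0.85), and remained at 0.86 without the 2 farthest mice, 0.96 in numbers 1 to 3 and 0.82 in numbers 4 to 11. Anapc5 ran opposite to Cdc20 (r = -0.93, rho -0.89), at -0.89 without the 2 farthest mice, -0.97 in numbers 1 to 3 and -0.96 in numbers 4 to 11. Anapc13 did the same (r = -0.85, rho -0.79; -0.75, -0.91 and -0.87), and Anapc5 and Anapc13 rose and fell together (r = 0.91, rho 0.86; 0.86, 0.94 and 0.89). For these 4 pairs the permutation p was 1e-05, the smallest that 100000 resamples can give, and 7.2e-05 after adjustment. In the 3 mice highest in Cdc20, ANTI-210 mouse 11 and SCR mice 6 and 7, Cdc20 was 9.10 in the ANTI-210 mouse and 9.27 and 8.95 in the SCR mice. The same 3 mice had the lowest Anapc5 values, 12.55 in the ANTI-210 mouse and 12.55 and 12.58 in the SCR mice. On these probes the subunits of one enzyme thus did not keep a constant ratio of intensities from mouse to mouse.

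**Figure D3:**
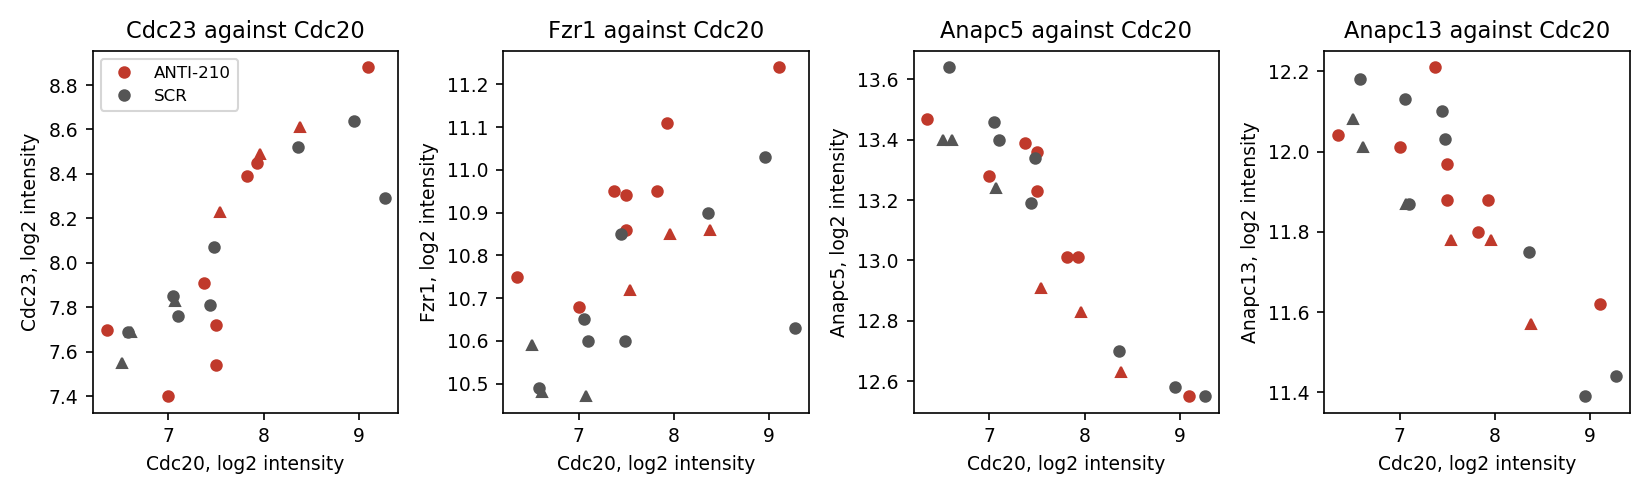
Log2 intensity of Cdc23, Fzr1, Anapc5 and Anapc13 against Cdc20, one point per mouse, ANTI-210 in red and SCR in grey (triangles for replicate numbers 1 to 3, circles for 4 to 11). With group means removed, r with Cdc20 is 0.84 for Cdc23, 0.69 for Fzr1, -0.93 for Anapc5 and -0.85 for Anapc13, and mice of both groups are found at the low and the high end of Cdc20.

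Fzr1 was also correlated with Cdc20, at a smaller r than Cdc23 or Anapc5 (the difference between these r was not tested). Its r was 0.69 with Cdc20 (rho 0.69, permutation p = 4.4e-04, adjusted 0.00198) and 0.67 with Cdc23 (rho 0.61, adjusted 0.00209). Without the 2 farthest mice these r were 0.50 and 0.48. In numbers 1 to 3 they were 0.29 and 0.26, and in numbers 4 to 11 they were 0.72 and 0.82. With Anapc5 Fzr1 correlated at -0.59 (rho -0.47, adjusted p = 0.00962), and without the 2 farthest mice r was -0.37 (permutation p = 0.106). It was -0.29 in numbers 1 to 3 and -0.73 in numbers 4 to 11 (permutation p = 0.00139). With Cdc27, Anapc2, Anapc4, Anapc11 and Anapc13 no correlation of Fzr1 passed after adjustment (r from -0.42 to 0.35). SCR mouse 6, the highest in Cdc20, had an Fzr1 value of 10.63, close to the SCR median. The next highest in Cdc20, ANTI-210 mouse 11 and SCR mouse 7, had the highest Fzr1 values of their groups (11.24 and 11.03).

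**Figure D4:**
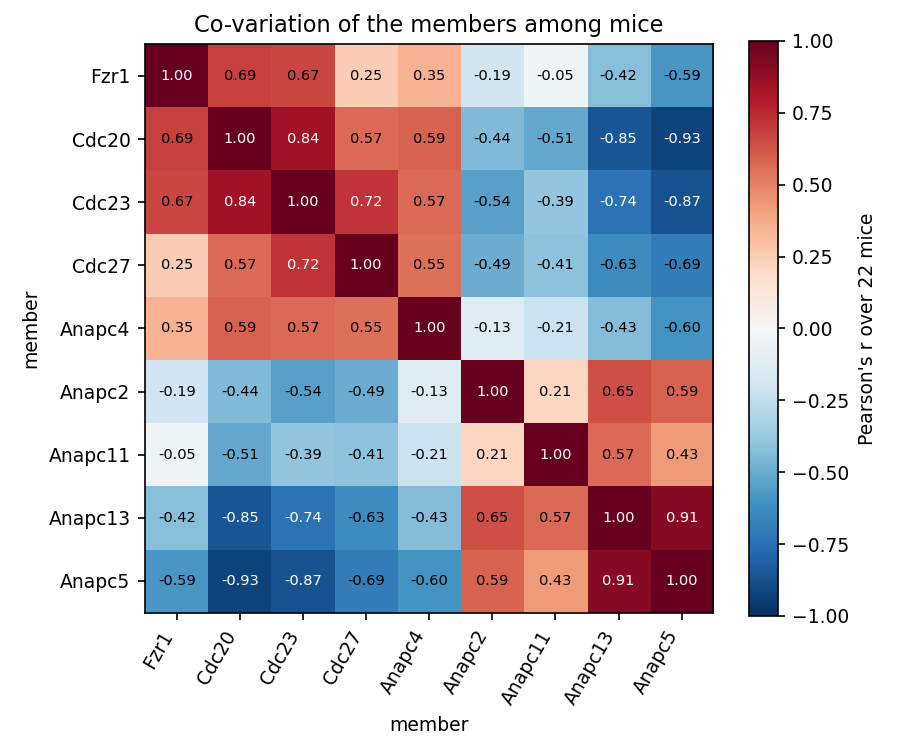
Pearson's r between the brightest probes of each pair of members over 22 mice, after removal of group means (red positive, blue negative). Over the 22 mice Cdc20, Cdc23, Cdc27 and Anapc4 form one block, and Anapc2, Anapc11, Anapc13 and Anapc5 lie opposite to it by sign. In numbers 1 to 3 alone, r with Cdc20 turned for Cdc27 (-0.51), Anapc4 (-0.06) and Anapc2 (0.31). For Cdc23, Anapc5, Anapc11 and Anapc13 it kept its sign there. The r between the blocks runs from -0.13 (Anapc2 with Anapc4) to -0.93 (Cdc20 with Anapc5), and not every such pair passed after adjustment. Cdc27 and Anapc11 were near the floor.

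The axis along which Cdc20 varied was shared by much of the transcriptome and by the markers of several cells. Of the 8827 genes above the floor level other than Cdc20, 21.4% had an r above 0.8 with it and 19.2% an r below -0.8. Over mice, Cdc20 correlated with the mean level of satellite cell and regenerating fibre markers at r = 0.92 (rho 0.90; 0.88 without the 2 farthest mice, 0.75 and 0.93 in the 2 sets of numbers), a list whose range was 8.59 to 10.16 in ANTI-210 mice and 8.70 to 10.17 in SCR mice, with 0 of 5 markers different between the groups and Pax7 near the floor. It correlated with fibroblast markers at 0.86 (rho 0.88; 0.80, 0.84 and 0.90; level 12.07 to 13.33 in ANTI-210 mice and 11.62 to 13.39 in SCR mice, 0 of 4 different). For macrophage markers r was 0.81 (rho 0.71; 0.67, 0.41 and 0.90; level 9.52 to 10.80 in ANTI-210 mice and 8.91 to 11.13 in SCR mice, 0 of 5 different). Single markers could go the other way: 4 of the 5 macrophage markers had a positive r with Cdc20, but Cd163, a scavenger receptor of resident macrophages, had -0.73, and among the 4 fibroblast markers Dcn had -0.35. With mature fibre markers, 0 of 7 of which differed between the groups, Cdc20 ran opposite (r = -0.90, rho -0.85; -0.84, -0.94 and -0.91). These 4 relations had an adjusted p of 5e-05 over 20 relations, the smallest their permutations can give. The endothelial level had r = -0.17 with Cdc20 (rho -0.07, adjusted p = 0.649). With the tendon level r was 0.57 (rho 0.45, adjusted p = 0.0186) and with the Schwann level -0.55 (rho -0.48, adjusted p = 0.0194), and without the 2 farthest mice these r were 0.33 and -0.35, no longer past the threshold. In numbers 1 to 3 they were 0.77 and 0.037, and in numbers 4 to 11 they were 0.46 and -0.90, the last of these with a permutation p of 1e-05. Fzr1 followed the regenerating fibre markers at 0.73 (rho 0.71, adjusted p = 6e-04; 0.59, 0.83 and 0.80). Its relations with fibroblast markers (r = 0.54, rho 0.49, adjusted p = 0.0209) and mature fibre markers (r = -0.56, rho -0.61, adjusted p = 0.0186) did not pass without the 2 farthest mice, at 0.39 and -0.24. They were -0.17 and -0.34 in numbers 1 to 3, and 0.75 and -0.64 in numbers 4 to 11 (permutation p = 9.7e-04 and 0.00642). The part of these cells in the co-variation of the members was not tested.

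Ranked over all genes by r with the member's brightest probe, as a description over 22 mice and 18523 genes, the closest to Cdc20 were Lig1 (0.98), Uhrf1 (0.98), Cdc7 (0.98), Prc1 (0.98) and Tk1 (0.97). Lig1 is a DNA ligase of replication, Uhrf1 maintains DNA methylation at replication, Cdc7 is a kinase that starts replication, Prc1 organizes the spindle midzone in cytokinesis and Tk1 is the thymidine kinase. The closest to Fzr1 were Tmem234 (0.90), Gtf2f2 (0.88), Cd160 (0.87, near the floor), Rab40c (0.85) and Itga7 (0.85). Gtf2f2 encodes a subunit of the transcription factor TFIIF, and Itga7 the laminin-binding integrin of muscle fibres. None of these 5 passed the unadjusted threshold, and their differences between the treatments lay between -0.05 (Rab40c) and 0.07 (Cd160).

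The genes that act with the complex were examined next, and their r over mice is given as a description, with no test. Of 56 listed 51 were measured, 21 of them near the floor, and 1 passed the unadjusted threshold, beside 3.47% of all genes. This was Ube2s, the E2 enzyme that extends ubiquitin chains on the complex, at 5.19 ± 0.15 in ANTI-210 mice and 5.36 ± 0.19 in SCR mice (SD, n = 11 each), a difference of -0.16 (standard error 0.07, unadjusted p = 0.0335 from limma). It was near the floor, as were Ube2c, the E2 that starts the chains (-0.03), and Ube2d1 (-0.08).

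Of the other subunits 0 of 5 passed, with a median difference of -0.01: Anapc15 -0.16, Cdc16 0.07, Anapc7 -0.04 and Anapc16 0.02. Among mice Cdc16, a scaffold partner of Cdc23 and Cdc27, had r = 0.83 with Cdc20. Anapc7, another TPR subunit, had 0.75 with Cdc20 and 0.83 with Fzr1, and Anapc16 had -0.70 with Cdc20. The subunits outside the member list were thus also split in sign.

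Of the spindle checkpoint proteins and inhibitors of the complex 0 of 9 passed (median 0.01). The checkpoint proteins Mad2l1 and Bub1b, which hold Cdc20 inactive until chromosomes are attached, differed by 0.18 and 0.20 and had r = 0.94 and 0.97 with Cdc20. Mad2l2, which inhibits Fzr1, differed by -0.05 and had r = -0.31 with Fzr1. Fbxo5, also called Emi1, was near the floor (-0.03). Of the 5 genes above the floor level 3 had a positive r with Cdc20 and 2 a negative one, and Bub3, also a checkpoint protein, was the lowest at -0.84. Bub3 was named after its value was seen.

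Of the division substrates 0 of 19 passed (median 0.05), among them the kinase Aurkb at 0.31, the ubiquitin ligase subunit Skp2 at 0.21, the ribonucleotide reductase subunit Rrm2 at -0.05 and the phosphatase Cdc25a at -0.05, with Skp2 and Rrm2 near the floor. Of the 11 above the floor level 10 had a positive r with Cdc20, 8 of them above 0.8, beside 21.4% of all genes above the floor level. Aurkb was at 0.96 and Cdc25a at 0.0037. The exception, named after its value was seen, was Pttg1, the securin that holds separase inactive, at -0.83. Its mean of 6.06 was only just above the floor level.

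Of the Fzr1 substrates with roles outside division 0 of 6 passed (median 0.03). Ets2, a transcription factor, was at 11.47 ± 0.13 in ANTI-210 mice and 11.37 ± 0.15 in SCR mice (SD, n = 11 each), a difference of 0.10 (unadjusted p = 0.0890 from limma). The helix-loop-helix inhibitor Id2 differed by 0.25, the deubiquitinase Usp1 by -0.07 and the myogenic factor Myf5, near the floor, by -0.02. Of the kinases, phosphatases and inhibitors that act on Fzr1 0 of 9 passed (median 0.08). Cdc14b, a phosphatase that can activate Fzr1, differed by -0.12 (unadjusted p = 0.0871 from limma), Cdk2, a kinase that inactivates it, by 0.18, the Cdk inhibitor Cdkn1a by 0.39 (standard error 0.45) and Ccne2, near the floor, by -0.13. Cdk2 and Cdkn1a, which act against each other, both had a high r with Cdc20 (0.94 and 0.87). Of the 6 regulators above the floor level 4 had a positive r and 2 a negative one: Cdc14b had -0.44 and its paralog Cdc14a, named after its value was seen, had -0.96.

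**Figure D5:**
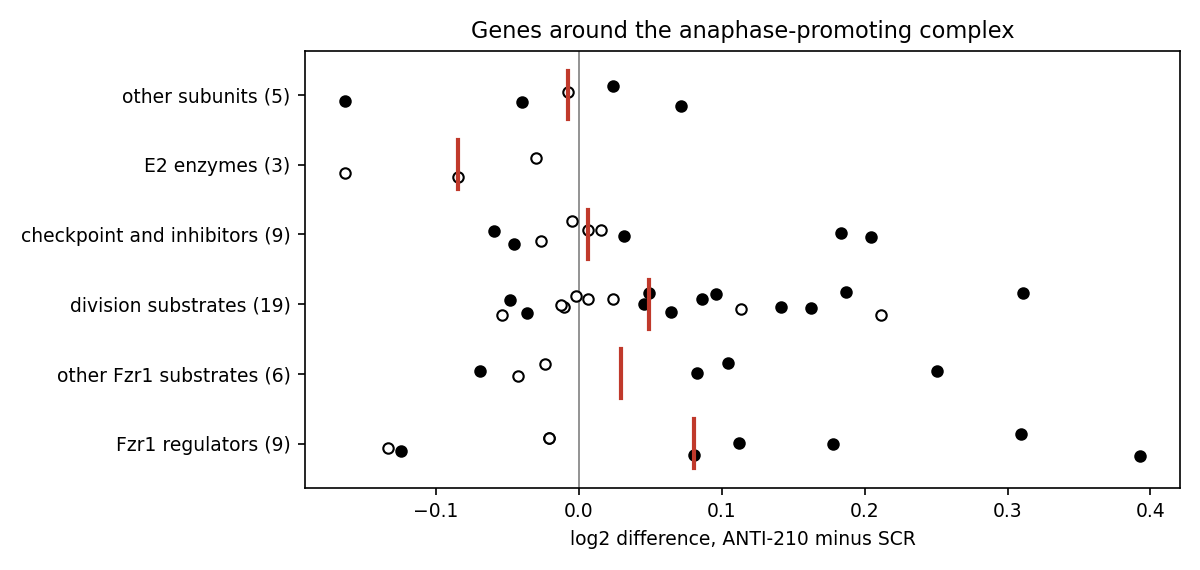
Log2 difference, ANTI-210 minus SCR, of the 51 measured genes that act with the complex, by list (number of genes in brackets). Filled points are genes above the floor level, open points genes near it, and red lines list medians, which lie between -0.08 and 0.08.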

How the data were processed

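RNA (200 ng per muscle) was hybridized to Illumina MouseWG-6 v2 BeadChips. The authors took bead summaries from GenomeStudio, then quantile normalized and filtered them with beadarray. The sources used here give neither versions nor filter thresholds. The deposited log2 values run from 4.35 to 15.4, and the base was taken from this range. Groups and replicate numbers came from the labels, 1 array per mouse.

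Gene names came from the platform annotation: 32093 probes carry 1 symbol, 16 several and 6454 none, and all 18 member probes match by Entrez ID and symbol. The probe with the highest mean stood for its gene. Tests were limma 3.58.1 (lmFit and eBayes) in R 4.3.3 at the methods' unadjusted threshold of 0.05 and after Benjamini-Hochberg adjustment over all probes, and permutation tests, all two-sided. The permutations were drawn with numpy 2.4.6, 100000 resamples each, with ranks and their Benjamini-Hochberg adjustment from scipy 1.17.1. They were exact for differences within sets of replicate numbers and for correlations within numbers 1 to 3. The fit was tested on simulated data. The members, lists and tests were chosen with earlier results of these data known. The text names all members, the up to 4 genes of each list with the smallest p or past the threshold, and the 5 genes most like Fzr1 and Cdc20. List levels are means over a list's genes in each mouse. Alternatives were 3 further normalizations, array weights, eBayes with trend and robust, leaving out dim probes, the replicate number as a block, 2 covariates, the mean of all probes and leaving out each mouse. Nothing in the sources says which mice shared a chip. The sequences of the oligonucleotides were not used here.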

Additional observations from a re-analysis of the deposited data

How the results depend on the processing

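The brightest Fzr1 probe was higher in ANTI-210 mice, and past the unadjusted threshold, under every alternative that fitted this probe. Leaving out each mouse gave 0.20 to 0.27 (unadjusted p at most 0.00793 from limma), and the count of member probes past the threshold was 1 each time (range 1 to 1). With the mean of all Fzr1 probes the difference was 0.054 (unadjusted p = 0.385), which follows from the other probes. The adjusted p of the brightest probe from limma was at least 0.41 under the settings other than leaving out a mouse. With array weights 2 member probes passed, the second being a dim Cdc27 probe (0.20, unadjusted p = 0.0395). Mice of the same replicate number did not behave as pairs across the groups (same-number correlations -0.66 to 0.64, and 1 ANTI-210 mouse correlated best with its own number). These correlations do not bear on the separation of low from high numbers given above, which both groups share. The fit with the replicate block gave Fzr1 0.24 (unadjusted p = 0.00523), 1 member probe past the threshold and 1305 of all probes against 1316.

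Small differences changed sign. Fitted beside the first principal component Cdc20 was -0.0011, Cdc27 -0.017 and Anapc13 0.020, and Fzr1 was 0.21. Anapc4 was 0.0023 after cyclic loess and 0.032 with array weights. Leaving out each mouse gave -0.018 to 0.076 for Cdc27, -0.028 to 0.0078 for Anapc4 and -0.079 to 0.0015 for Anapc13. On leaving out each mouse 4 other differences kept their sign but not their size: 0.042 (without ANTI-210 mouse 11) to 0.36 (without SCR mouse 6) for Cdc20, 0.071 (without ANTI-210 mouse 11) to 0.22 for Cdc23, -0.17 to -0.061 for Anapc5 and -0.074 to -0.013 for Anapc2. With array weights these 4 were 0.43, 0.27, -0.22 and -0.099. None passed the threshold. The cause was not tested. Of all probes 3628 passed with array weights, 2298 in the fit beside that component and 492 of 19285 under the filter on dim probes, which left out Anapc11. The dimness of 6 member probes limits what their differences can show, and the number of arrays limits the precision.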
